A study of Mus musculus with 6 samples.

Results

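Fibro-adipogenic progenitors of skeletal muscle can become fat cells, and 10 genes of the fat cell program were followed here in stromal cells sorted from mouse muscle. The genes were taken as a fixed list of known adipogenic regulators and lipid storage genes: Pparg, Cebpa, Cebpb, Cebpd, Adipoq, Plin1, Plin2, Lpl, Fabp4 and Fabp5. No threshold on their values was used, but earlier results of these data were known when the list was chosen. All 10 were found among the 22483 genes of the expression table, and all 10 passed the filter on low values that left 15532 genes for testing. That filter was lenient and let genes with very few reads pass.

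When a mesenchymal progenitor turns into a fat cell, C/EBP beta and C/EBP delta are induced early and are followed by PPAR gamma and C/EBP alpha, which maintain each other and switch on the genes of the mature cell. Those genes encode the secreted hormone adiponectin, the proteins that coat lipid droplets, the lipase that frees fatty acids from circulating lipoproteins, and the small proteins that carry fatty acids inside the cell. In muscle the progenitors that can take this path are commonly marked by CD140a (PDGF receptor alpha) on their surface. The study also reported that cultured CD140a(-)/Sca1(+) cells formed fat cells when adipogenesis was induced. Several of these genes are also used by other cells of the tissue: Fabp4 is a gene of capillary endothelium as well as of fat, and Plin2, Lpl and Fabp5 are expressed by macrophages.

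The stromal cells were sorted from hind limb muscle of Swiss white mice aged 8 to 12 weeks, on day 3 after cardiotoxin (20 uM) had been injected to destroy the muscle fibers, and from contralateral untreated muscle as the control. Cells negative for CD45, CD31 and CD11b were split by CD140a and Sca1 into a CD140a(-)/Sca1(+), a CD140a(+)/Sca1(-) and a CD140a(+)/Sca1(+) subpopulation, and each was sequenced once in each state, giving 6 libraries of 3 injured and 3 control subpopulations. The labels name the tibialis anterior, while the text of the study gives gastrocnemius and soleus for the acute injury, so which of these muscles the libraries came from is not certain. The methods do not say how many of the animals went into each library. The cells were kept at 37 °C for 8 h for surface marker recovery before staining. With 1 library per subpopulation and state, the test of injury treated the 3 subpopulations as replicates, so that its p-values measure the spread of the injury difference among subpopulations and not among animals. In these bulk libraries, fewer cells of a type and less RNA per cell cannot be told apart.

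Values are given as normalized counts, which are the deposited log2 values put back on the linear scale, and as differences on the deposited log2 scale, which compresses low values. Sets of 3 values follow the order CD140a(-)/Sca1(+), CD140a(+)/Sca1(-), CD140a(+)/Sca1(+). Estimated depth ran from 2094353 to 14173590 reads, so that 3 reads were worth from 0.439 to 2.94 normalized counts. The injured CD140a(+)/Sca1(-) library stood apart: 69.1% of genes were listed at 0 in it, against 28.2% to 39.0% in the other 5 libraries, and 928 of the 5274 genes with at least 20 normalized counts in every other library were listed at 0 there. A value of 0 in this library therefore says little about a gene. By the study's own check, sorting enrichment was lowest for the control CD140a(+)/Sca1(+) cells. The sort genes did not follow every label. Pdgfra, which encodes CD140a, had 335, 203 and 1240.0 normalized counts in injured CD140a(-)/Sca1(+), CD140a(+)/Sca1(-) and CD140a(+)/Sca1(+) cells, against 211, 33.6 and 26.3 in the control cells, so that the library labelled control CD140a(-)/Sca1(+) held more Pdgfra than both control libraries labelled CD140a(+). Ly6a, which encodes Sca1, had 1177, 2.09 and 4099 normalized counts in the injured and 5850.0, 70.4 and 253 in the control cells, lowest in both CD140a(+)/Sca1(-) libraries. Of 15 markers of fibro-adipogenic progenitors and fibroblasts, 5 rose and 0 fell, against 2.3% of all genes called higher and 3.46% called lower. These 15 genes summed to 2.62%, 1.53% and 1.74% of the injured and 0.880%, 0.363% and 0.151% of the control libraries. Without the CD140a(+)/Sca1(+) pair 3 of them rose and 2 fell, and without the CD140a(+)/Sca1(-) pair 8 rose.

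Markers of mature fat cells were low. The 18 mature adipocyte genes on the list summed to 0.00180%, 0.00277% and 0.00356% of the injured CD140a(-)/Sca1(+), CD140a(+)/Sca1(-) and CD140a(+)/Sca1(+) libraries, and to 0.00302%, 0.00268% and 0.00570% of the control libraries. Of the 18 genes, 10, 15 and 12 were listed at 0 in the injured and 6, 12 and 7 in the control libraries. Lep, the gene for leptin, was listed at 0 in 5 libraries and at 0.146 normalized counts in injured CD140a(-)/Sca1(+) cells, which is 1 read. The most abundant of the 18 were Pnpla3 (adiponutrin, a lipid droplet protein) and Slc7a10 (an amino acid transporter). Slc7a10 had 4.39, 52.0 and 50.9 normalized counts in injured CD140a(-)/Sca1(+), CD140a(+)/Sca1(-) and CD140a(+)/Sca1(+) cells, against 4.12, 5.14 and 6.18 in control cells, and its difference of 1.38 ± 0.61 (SE, n = 3 pairs; limma adjusted p = 0.636) was not called. Pnpla3 had 10.96, 0 and 15.4 normalized counts in injured and 17.1, 37.3 and 46.8 in control cells, and its difference of -1.53 ± 0.65 (SE, n = 3 pairs; limma adjusted p = 0.633) was not called either.

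Of the 10 genes, 1 changed with injury at the threshold used, an unadjusted limma p under 0.05 and a difference of at least 3-fold on the deposited scale. Fabp4 fell, and none rose. Over all genes tested, 3.46% were called lower, 2.3% higher and 5.76% in either direction. The median difference over the 10 genes was -0.58 on the log2 scale, against -0.33 over all genes tested. Cebpa, Cebpb, Plin1 and Fabp4 were lower in all 3 injured libraries than in their control libraries, a pattern that 20.2% of all genes tested showed, and Plin2 was higher in all 3, as were 7.92% of genes. Under quantile normalization Plin1 turned to higher in CD140a(+)/Sca1(-) cells and Cebpb to higher in CD140a(-)/Sca1(+) cells, and 75th percentile scaling turned Cebpb the same way and Plin2 to lower in CD140a(+)/Sca1(+) cells. The limma test found no gene in the whole table with a Benjamini-Hochberg adjusted p under 0.05, with a lowest value of 0.192, and 1241 genes (7.99%) with an unadjusted p under 0.05. Alternative settings of the same test gave from 0 to 95 genes at that adjusted level.

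**Figure D1:**
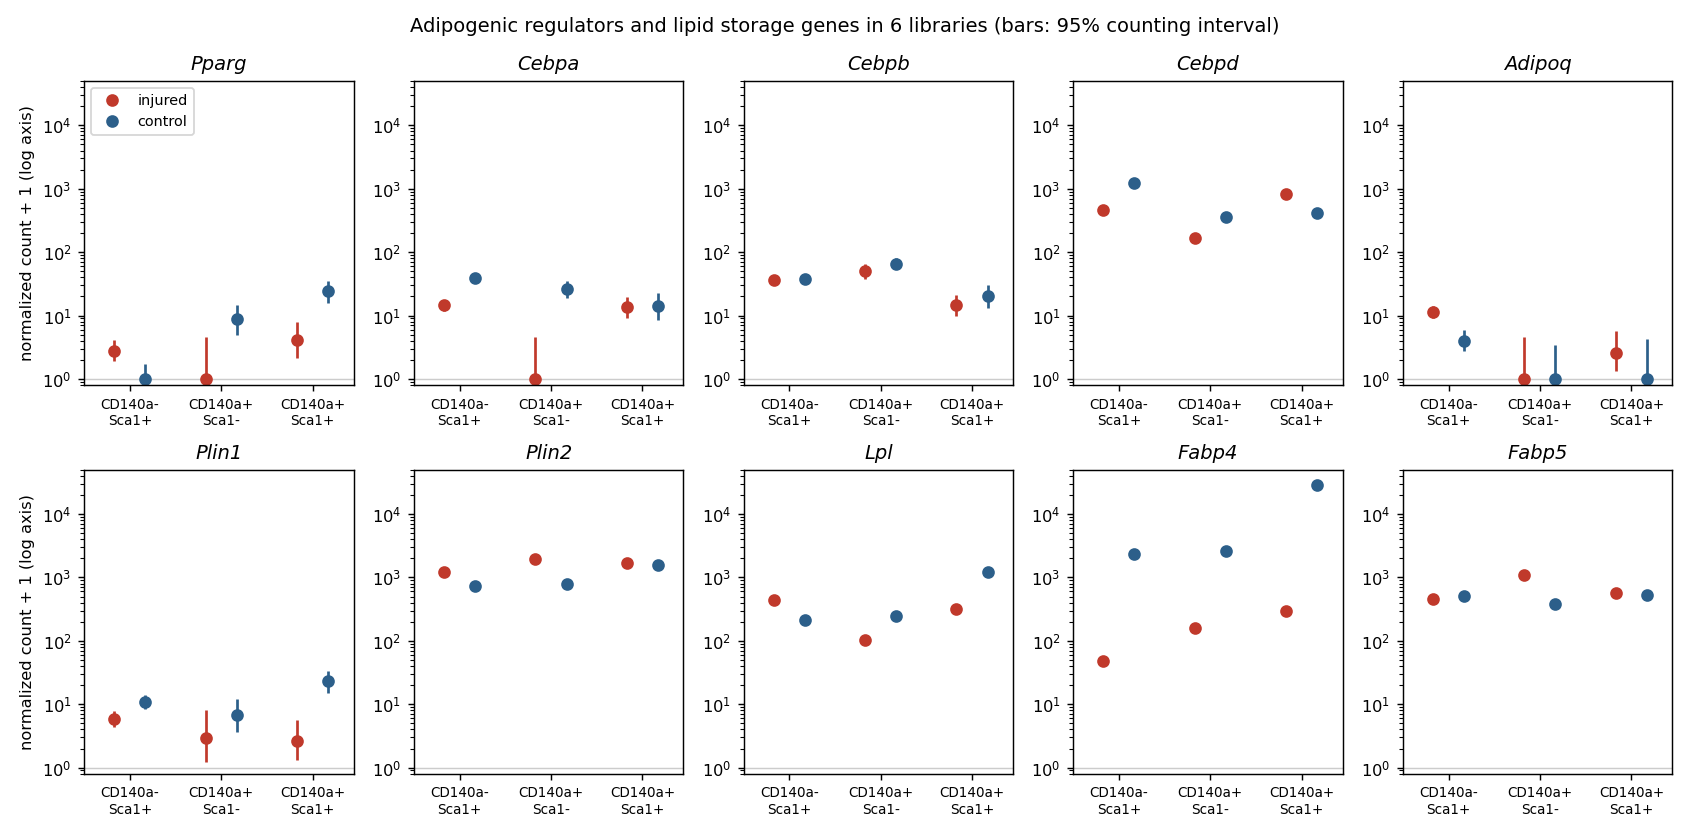
Normalized count plus 1 on a log axis for each of the 10 genes in the injured (red) and control (blue) library of each subpopulation. Points are single libraries and bars are 95% counting intervals, which cover counting error only. Fabp4 stands between 47.2 and 298 normalized counts in the injured libraries and between 2318 and 29146 in the control libraries, while the other genes, apart from Plin1, overlap between states.

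Pparg encodes PPAR gamma, the nuclear receptor without which fat cells do not form. It lies on chromosome 6 from 115360951 to 115490399 of GRCm38, on the forward strand. It was close to the detection limit, with 1.77, 0 and 3.04 normalized counts in injured CD140a(-)/Sca1(+), CD140a(+)/Sca1(-) and CD140a(+)/Sca1(+) cells, against 0, 7.78 and 23.0 in control cells. The highest value was in the control CD140a(+)/Sca1(+) library, and the injured and control libraries overlapped because no read was found in the control CD140a(-)/Sca1(+) library. In CD140a(+)/Sca1(+) cells the level was 7.56-fold lower after injury. Estimated reads, rounded to whole numbers, were 6 in injured and 26 in control cells (exact 95% counting interval of the fold on the rounded reads 2.91 to 21.4). In CD140a(-)/Sca1(+) cells the 95% counting interval was 0.906 to 3.06 normalized counts in the injured and 0 to 0.691 in the control library. The injured value was 3.15 times the value of 3 reads in the control library. This is not a lower bound of the fold, since the intervals allow a smaller one. The difference over the 3 subpopulations was -0.76 ± 0.65 on the log2 scale (SE, n = 3 pairs; limma adjusted p = 0.714), within the spread among subpopulations.

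Cebpa encodes C/EBP alpha, the partner of PPAR gamma in the later phase of fat cell formation, and lies on chromosome 7 from 35119293 to 35121928 on the forward strand. It had 13.6, 0 and 12.7 normalized counts in injured CD140a(-)/Sca1(+), CD140a(+)/Sca1(-) and CD140a(+)/Sca1(+) cells, against 37.5, 25.1 and 13.2 in control cells. The level was 2.76-fold lower in injured CD140a(-)/Sca1(+) cells, its value was 0 after injury in CD140a(+)/Sca1(-) cells, and the CD140a(+)/Sca1(+) libraries differed by 1.04-fold, less than their counting error. The difference was -1.22 ± 0.64 (SE, n = 3 pairs; limma adjusted p = 0.655), and -0.53 without the CD140a(+)/Sca1(-) pair.

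Cebpb, the gene for C/EBP beta, lies on chromosome 2 from 167688915 to 167690418 on the forward strand. It had 34.8, 49.1 and 13.8 normalized counts in injured CD140a(-)/Sca1(+), CD140a(+)/Sca1(-) and CD140a(+)/Sca1(+) cells, against 36.4, 64.9 and 19.4 in control cells. The order of the subpopulations was the same in both states, with CD140a(+)/Sca1(-) cells highest and CD140a(+)/Sca1(+) cells lowest. The injury difference of -0.23 ± 0.48 (SE, n = 3 pairs; limma adjusted p = 0.872) was smaller than its error, with a 95% interval from -1.39 to 0.93.

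Cebpd, the gene for C/EBP delta, had the most 3′ end tags of the 4 regulators. It lies on chromosome 16 from 15887286 to 15891031 on the forward strand. It had 468, 169 and 822 normalized counts in injured CD140a(-)/Sca1(+), CD140a(+)/Sca1(-) and CD140a(+)/Sca1(+) cells, against 1249, 353 and 418 in control cells. The level was 2.67-fold lower in injured CD140a(-)/Sca1(+) cells, 2.09-fold lower in injured CD140a(+)/Sca1(-) cells and 1.97-fold higher in injured CD140a(+)/Sca1(+) cells, each library against its control. The highest injured library was CD140a(+)/Sca1(+), and the highest control library was CD140a(-)/Sca1(+). Over the 3 subpopulations the difference was -0.49 ± 0.63 (SE, n = 3 pairs; limma adjusted p = 0.790). Whether the subpopulations differed in this response could not be tested with 1 library each. Each of Pparg, Cebpa, Cebpb and Cebpd overlaps a gene on the opposite strand, and the strand setting of the counting is not given in the sources used here.

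Adipoq encodes adiponectin, the hormone that mature fat cells secrete, and lies on chromosome 16 from 23146536 to 23158028 on the forward strand. It had 71, 0 and 3 reads in injured CD140a(-)/Sca1(+), CD140a(+)/Sca1(-) and CD140a(+)/Sca1(+) cells, against 16, 0 and 0 reads in control cells, equal to 10.4, 0 and 1.59 against 3.00, 0 and 0 normalized counts. Nearly all reads came from the CD140a(-)/Sca1(+) libraries, which were also the deepest. There the level was 3.46-fold higher after injury. The difference over the 3 subpopulations was 0.51 ± 0.49 (SE, n = 3 pairs; limma adjusted p = 0.737).

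The 2 lipid droplet coat genes were far apart in 3′ end tags, with Plin2 the more abundant in every library. Plin1 encodes perilipin 1, which coats the droplets of mature fat cells and controls access of lipases to them, and lies on chromosome 7 from 79720218 to 79732903 on the reverse strand. It had 4.81, 1.96 and 1.58 normalized counts in injured CD140a(-)/Sca1(+), CD140a(+)/Sca1(-) and CD140a(+)/Sca1(+) cells, against 9.71, 5.76 and 21.9 in control cells. Every injured library was below every control library, as for 11.2% of all genes tested, but the reads behind these values were few. In CD140a(+)/Sca1(+) cells 3 rounded reads in the injured library stood against 25 in the control library, a 13.9-fold lower level (exact 95% counting interval of the fold on the rounded reads 4.24 to 71.8). The difference over the 3 subpopulations was -0.92 ± 0.53 (SE, n = 3 pairs; limma adjusted p = 0.677).

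Plin2 encodes perilipin 2, which coats droplets in nearly every cell type that stores lipid, and lies on chromosome 4 from 86648386 to 86670060 on the reverse strand. It had 1231, 1968 and 1698 normalized counts in injured CD140a(-)/Sca1(+), CD140a(+)/Sca1(-) and CD140a(+)/Sca1(+) cells, against 728, 796 and 1580.0 in control cells. The level was 1.69-fold and 2.47-fold higher after injury in CD140a(-)/Sca1(+) and CD140a(+)/Sca1(-) cells, and the CD140a(+)/Sca1(+) libraries were 1.07-fold apart. The control CD140a(+)/Sca1(+) library reached the range of the injured libraries, so that the states overlapped. The difference of 0.71 ± 0.51 (SE, n = 3 pairs; limma adjusted p = 0.696) was not called, with a 95% interval from -0.53 to 1.96.

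Promoter sequences from RefSeq (GRCm38.p6, from 250 bases before to 50 after an annotated start) were found for 6 of the 10 genes, in 8 windows, and were searched on both strands for the C/EBP motif TTGCNNAA, the AP-1 motif TGANTCA and the PPAR and RXR motif DR1 (AGGTCA written again after 1 base). The C/EBP letters were in 2 of the 8 windows, those of the most downstream of the 3 Pparg starts and of Plin1, against 10.8% of all 32851 windows of the genome. The other motifs were in none of the 8 windows, against 7.81% and 0.0396% of all windows. The 2 windows with a match are printed, and the windows without one, which include the other Pparg starts, are not. No window was available for Cebpd, Lpl, Fabp4 and Fabp5, so these genes were not searched. Pparg and Plin1 also had the lowest normalized counts relative to control, apart from the unsearched Fabp4, in CD140a(+)/Sca1(+) cells, from about 6 and 3 injured reads. In CD140a(-)/Sca1(+) cells Pparg went the other way, with 1.77 normalized counts in the injured and 0 in the control library. A link between motif and level was not tested. Capitals mark the matched letters, which are a description and not a site of binding, and 3′ end reads do not show which start a transcript used.
Pparg, chr6:115421816-115422115, forward strand: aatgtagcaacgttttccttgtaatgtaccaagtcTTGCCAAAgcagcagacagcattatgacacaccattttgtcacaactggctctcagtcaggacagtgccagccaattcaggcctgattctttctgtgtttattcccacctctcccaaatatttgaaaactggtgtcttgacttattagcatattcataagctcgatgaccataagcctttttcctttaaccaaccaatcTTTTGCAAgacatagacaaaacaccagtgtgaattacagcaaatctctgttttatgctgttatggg
Plin1, chr7:79732727-79733026, reverse strand: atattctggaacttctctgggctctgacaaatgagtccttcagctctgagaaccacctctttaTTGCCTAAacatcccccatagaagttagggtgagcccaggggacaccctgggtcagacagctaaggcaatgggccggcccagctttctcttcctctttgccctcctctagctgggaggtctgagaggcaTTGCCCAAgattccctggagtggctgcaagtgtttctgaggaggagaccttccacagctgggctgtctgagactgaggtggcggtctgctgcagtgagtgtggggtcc
In Pparg the matches began 215 and 16 bases before the start, and in Plin1 they began 187 and 58 bases before it.

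Lpl encodes lipoprotein lipase, which releases fatty acids from triglyceride-rich lipoproteins at the capillary wall, and lies on chromosome 8 from 68880491 to 68907448 on the forward strand. It had 436, 102 and 318 normalized counts in injured CD140a(-)/Sca1(+), CD140a(+)/Sca1(-) and CD140a(+)/Sca1(+) cells, against 211, 242 and 1205 in control cells. The level was 2.07-fold higher in injured CD140a(-)/Sca1(+) cells, 2.38-fold lower in injured CD140a(+)/Sca1(-) cells and 3.79-fold lower in injured CD140a(+)/Sca1(+) cells. The control CD140a(+)/Sca1(+) library was the highest of all 6, 4.98-fold above the next control library, and the states overlapped. The difference over the 3 subpopulations was -0.68 ± 0.69 (SE, n = 3 pairs; limma adjusted p = 0.744), and the opposite directions among subpopulations could not be tested.

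Fabp4 carried the main difference. It encodes fatty acid binding protein 4 (aP2), an abundant carrier of fatty acids in the cytoplasm of fat cells and of capillary endothelium, and lies on chromosome 3 from 10204088 to 10208576 on the reverse strand. It had 47.2, 156 and 298 normalized counts in injured CD140a(-)/Sca1(+), CD140a(+)/Sca1(-) and CD140a(+)/Sca1(+) cells, against 2318, 2590.1 and 29146 in control cells. Every injured library was below every control library, as for 11.2% of all genes tested, and the lowest control library was several times the highest injured one. The level was 49.1-fold lower in injured CD140a(-)/Sca1(+) cells, 16.6-fold lower in injured CD140a(+)/Sca1(-) cells and 97.7-fold lower in injured CD140a(+)/Sca1(+) cells.

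In the control CD140a(+)/Sca1(+) library Fabp4 was second in rank among all genes by normalized count, with 1.41% of the library, against 0.103% of control CD140a(-)/Sca1(+) cells and 0.124% of control CD140a(+)/Sca1(-) cells. Its rank was 5031, 2606 and 1407 in the injured CD140a(-)/Sca1(+), CD140a(+)/Sca1(-) and CD140a(+)/Sca1(+) libraries, against 136, 96 and 2 in the control libraries. The fall over the 3 subpopulations was -5.28 ± 0.64 on the log2 scale (SE, n = 3 pairs; 95% interval -6.83 to -3.72), larger than the spread among subpopulations. The Benjamini-Hochberg adjusted p over 15532 genes was 0.205, above 0.05. Fabp4 was called under all 12 alternative settings, with a change between -5.94 and -4.64 and an adjusted p between 7.06e-08 and 0.836. The limma adjusted p was under 0.05 with a filter on normalized counts (0.0395 over 10734 genes, of which 0.14% were under 0.05, 3.37% called higher and 5.33% called lower), with a mean-variance trend (7.06e-08) and without the CD140a(+)/Sca1(-) pair (0.00602), and it was 0.836 without the CD140a(-)/Sca1(+) pair and 0.670 without the CD140a(+)/Sca1(+) pair.

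Fabp5 encodes the related fatty acid binding protein 5 (mal1), a carrier made in skin, macrophages and fat, and lies on chromosome 3 from 10012548 to 10016607 on the forward strand, 187.5 kb from Fabp4 in the same cluster of binding protein genes, with Pmp2 and Fabp9 between them. It had 458, 1103 and 574 normalized counts in injured CD140a(-)/Sca1(+), CD140a(+)/Sca1(-) and CD140a(+)/Sca1(+) cells, against 507, 382 and 537 in control cells. The injured CD140a(+)/Sca1(-) library was 2.89-fold above its control, and the other pairs were 1.11-fold and 1.07-fold apart. The difference was 0.48 ± 0.56 (SE, n = 3 pairs; limma adjusted p = 0.772) and was -0.024 without the CD140a(+)/Sca1(-) pair.

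The balance of the 2 binding proteins within a library does not depend on scaling between libraries. The ratio of Fabp4 to Fabp5 normalized counts was 0.103, 0.141 and 0.520 in injured CD140a(-)/Sca1(+), CD140a(+)/Sca1(-) and CD140a(+)/Sca1(+) cells, against 4.57, 6.78 and 54.3 in control cells. Fabp5 was therefore the more abundant tag in every injured library and Fabp4 in every control library, on the scale of 3′ end tags, of which each transcript gives about one. Fabp4 made up 1.75%, 4.40% and 7.97% of the summed counts of the 10 genes in the injured and 45.5%, 58.0% and 88.4% in the control libraries. Without Fabp4 the remaining genes summed to 0.128%, 0.165% and 0.159% of the injured libraries, against 0.124%, 0.0899% and 0.184% of the control libraries, so that these sums overlapped between states.

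**Figure D2:**
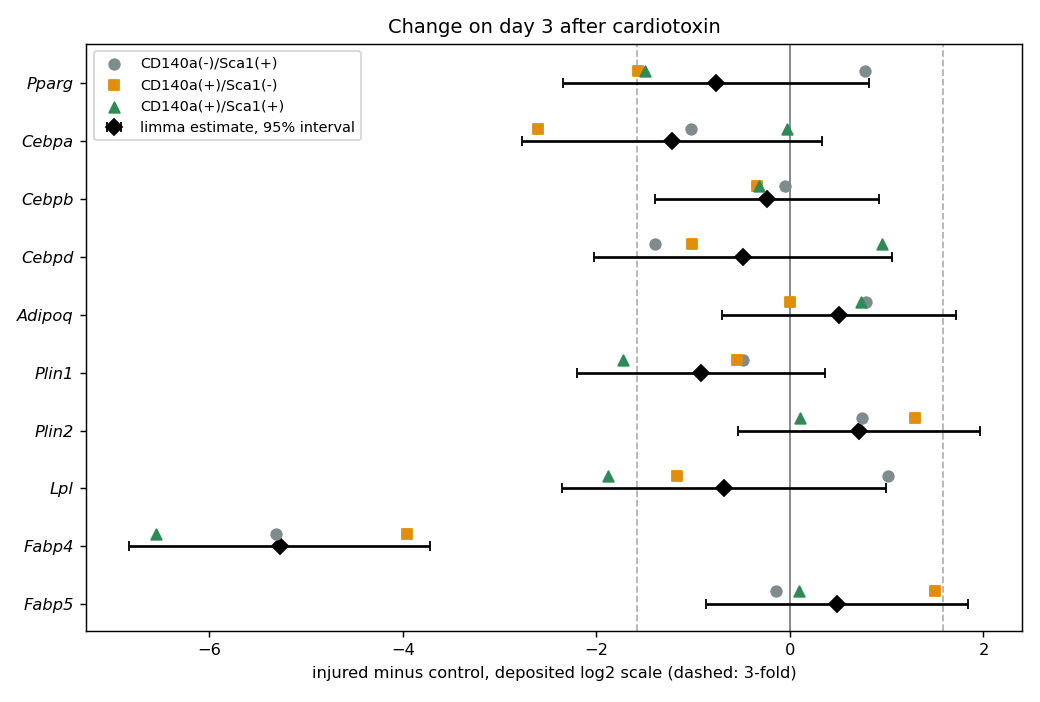
Injured minus control for each of the 10 genes on the deposited log2 scale. Coloured symbols are the 3 subpopulations, 1 library against 1, and diamonds with bars are the limma estimate with its 95% interval over the 3 pairs. Fabp4 lies at -5.28 with an interval from -6.83 to -3.72, and the intervals of the other genes all include 0.

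Markers of blood vessel cells were lower in the same injured libraries as Fabp4. Of 22 endothelial markers, 12 fell, 0 rose, and the median difference was -2.32, against 3.46% of all genes called lower and a median of -0.33. Their summed level was 0.00752%, 0.00907% and 0.0136% of the injured CD140a(-)/Sca1(+), CD140a(+)/Sca1(-) and CD140a(+)/Sca1(+) libraries, against 0.124%, 0.0429% and 0.200% of the control libraries, that is 16.5-fold, 4.73-fold and 14.7-fold lower. The share of Fabp4 in the same libraries was 45.3-fold, 16.3-fold and 102-fold lower. The 4.73-fold figure rests largely on Rgcc and Aqp1, which were picked out after their values were seen. In injured CD140a(+)/Sca1(-) cells they had 129 and 44.2 of the 186 normalized counts of the sum. In its control library they had 25.7 and 0, so both went against the list there. That fold therefore cannot be set against the fold of Fabp4. Cdh5 (VE-cadherin, the adhesion protein of endothelial junctions) had 17.0, 0 and 21.6 normalized counts in injured and 506, 146 and 547 in control cells, although the gate was meant to remove cells with CD31. Pecam1, the gene for CD31 itself, had 1.39, 0 and 1.51 in injured and 47.4, 19.8 and 105 in control cells. Of the 22 markers, 8, 18 and 7 were listed at 0 in the injured and 0, 2 and 0 in the control libraries. The highest endothelial sum and the highest Fabp4 level were both in the control CD140a(+)/Sca1(+) library, which also held the most red blood cell RNA, with 0.587% of its counts from 7 such genes. Pparg, Plin1 and Lpl were highest in that library too. The red blood cell genes took 0.000261%, 0% and 0.0308% of the injured and 0.0310%, 0.0949% and 0.587% of the control libraries. Of 11 pericyte and smooth muscle markers, 1 rose and 3 fell, and of 9 tested muscle fiber and satellite cell markers 0 rose and 0 fell, with medians of -0.34 and -0.72. Without the CD140a(-)/Sca1(+) pair no pericyte marker rose. The part of vessel and blood cells in the values of Fabp4, Pparg, Plin1 and Lpl was not tested.

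Markers of macrophages and other leukocytes stood on the other side. Of 17 tested, 2 rose and 0 fell, with a median of 0.63, against 2.3% of all genes called higher, 3.46% called lower and a median of -0.33. The 18 genes of the list summed to 0.0856%, 0.200% and 0.0732% of the injured libraries, against 0.0350%, 0.0127% and 0.0103% of the control libraries. Lyz2 (lysozyme) and Gpnmb, both high in macrophages that take up debris, were the 2 that rose. Gpnmb had 1288, 3133 and 1257 normalized counts in injured and 353, 68.1 and 124 in control cells, and made up 72.6%, 76.4% and 79.5% of the injured and 45.0%, 25.7% and 58.0% of the control sums. Without Gpnmb, which was left out after its values were seen, the sums were 0.0234%, 0.0472% and 0.0150% of the injured and 0.0193%, 0.00944% and 0.00435% of the control libraries. Ptprc, the gene for CD45, had 2.50, 0 and 0.533 in injured and 20.5, 0 and 0.887 in control cells. Itgam, the gene for CD11b, had 22.5, 27.5 and 8.48 in injured and 24.0, 13.5 and 18.5 in control cells, although the gate was meant to remove cells with CD11b. The injured CD140a(+)/Sca1(-) library, in which Plin2 and Fabp5 were highest, had the highest sum of these markers, and 8 of its 18 markers had a value of 0. Their part in the Plin2 and Fabp5 values was not tested.

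**Figure D3:**
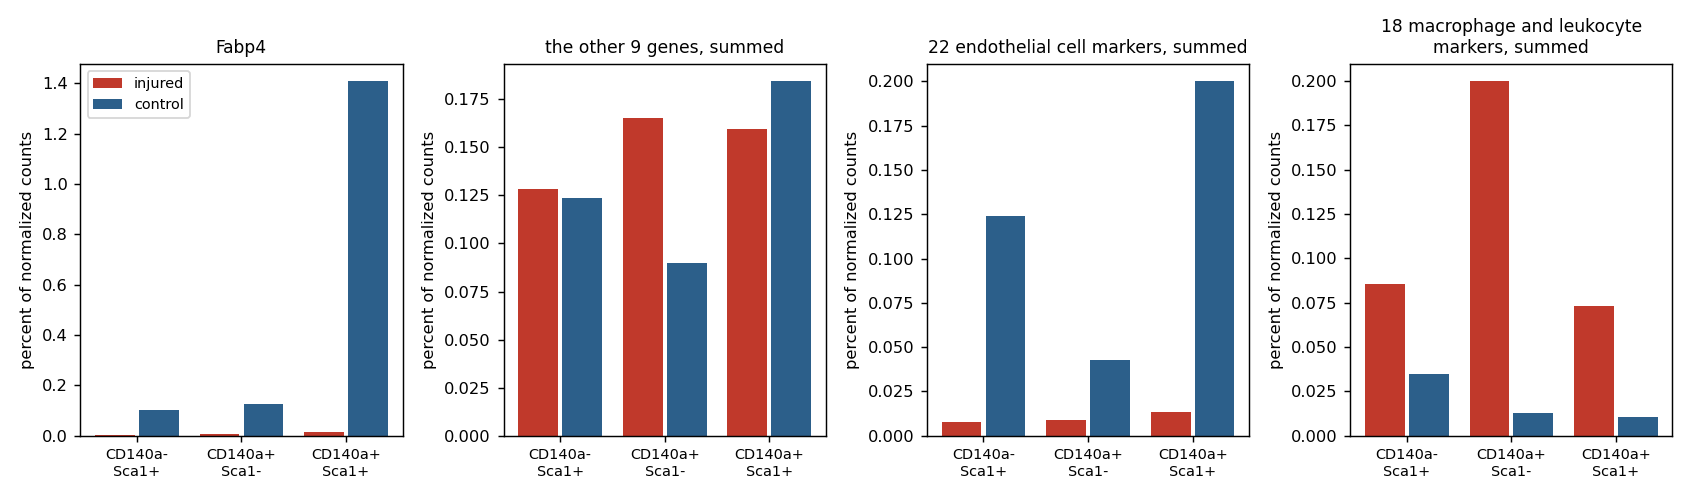
Percent of all normalized counts in each injured (red) and control (blue) library for Fabp4, for the sum of the other 9 genes, for the sum of 22 endothelial markers and for the sum of 18 macrophage and leukocyte markers; axes start at 0 and differ between panels. Fabp4 reaches 1.41% in control CD140a(+)/Sca1(+) cells and at most 0.0138% in injured cells, the endothelial sum is lower in each injured library, and the macrophage sum, of which Gpnmb made up 72.6% to 79.5% in injured cells, is higher in each.

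The genes whose pattern over the 6 libraries was most like that of each abundant gene were found by Pearson r on the deposited scale among 3466 genes whose mean reached 100 normalized counts. The 6 points share injury state and subpopulation, so that r describes these libraries only. For Fabp4 these were Emcn (endomucin, r = 0.98), Myct1 (r = 0.98), both genes of endothelial cells, and Slc48a1 (a heme transporter, r = 0.97). Emcn had 2.41, 10.4 and 18.3 normalized counts in injured and 287, 129 and 879 in control cells. For Cebpd they were Tlr3 (a sensor of double-stranded RNA), Ccn1 (a matricellular protein) and Tor1aip1, each with r = 0.99, and for Lpl they were Olfr1423 (r = 0.98), Ppp3ca (calcineurin A, r = 0.97) and Cmpk1 (r = 0.96). Plin2 was nearest to Rmi2 (r = 0.95), Anapc1 and Chtop (r = 0.94 each), and Fabp5 to Mdm2, Txndc9 and Xpnpep1 (r = 0.97 each).

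Between subpopulations, each was compared with the mean of the other 2 over both states, with the states as replicates. Of the 10 genes, Fabp4 was called higher in CD140a(+)/Sca1(+) cells, with a difference of 2.61 ± 0.68 (SE, n = 2 libraries; limma adjusted p = 0.986), in a comparison where 1.32% of all genes were called higher and 0.47% lower. Fabp4 was also called lower in CD140a(-)/Sca1(+) cells, by -1.93 ± 0.68 (limma adjusted p = 0.998), where 0.283% of genes were called lower and 1.33% higher. This second call rested on the CD140a(+)/Sca1(+) libraries, since without that pair the difference was -0.84 and not called. The first difference was 2.19 and not called without the CD140a(-)/Sca1(+) pair. None of the 10 genes was called in CD140a(+)/Sca1(-) cells, where 0.657% of genes were called higher and 3.73% lower. The order of Fabp4 within control cells was CD140a(+)/Sca1(+), then CD140a(+)/Sca1(-) 11.3-fold below it, then CD140a(-)/Sca1(+) a further 1.12-fold below, and the order of the subpopulations was the same after injury, with steps of 1.91-fold and 3.31-fold. Among the 10 genes, Lpl had the next largest difference of CD140a(+)/Sca1(+) cells, at 1.45 ± 0.73 (limma adjusted p = 0.986), and Cebpd was -1.41 ± 0.67 (limma adjusted p = 0.615) in CD140a(+)/Sca1(-) cells.

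Within single subpopulations, where each value is 1 library against 1 and carries no test, the genes at least 3-fold lower on the deposited scale were Fabp4 in CD140a(-)/Sca1(+) cells (4.35% of all genes were), Fabp4 and Cebpa in CD140a(+)/Sca1(-) cells (29.4% of all genes) and Fabp4, Lpl and Plin1 in CD140a(+)/Sca1(+) cells (6.07% of all genes). None of the 10 was 3-fold higher on the deposited scale in any subpopulation. In normalized counts Adipoq passed 3-fold in CD140a(-)/Sca1(+) cells, as given above, and Pparg had no read in the control library there. Over all genes the shares 3-fold higher on the deposited scale were 1.97%, 8.31% and 10.4%.

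The other genes of the program were read from lists of known regulators and enzymes. Over all genes tested, 2.3% were called higher and 3.46% lower, with a median of -0.33, for comparison with each list. The genes listed as other C/EBP, PPAR and RXR factors did not change at the threshold: of 10 tested, 0 rose and 0 fell by the limma test, with a median of -0.56. A place on this list does not show that a gene is a partner of PPAR gamma or C/EBP alpha. Cebpz had the largest mean level among them, with 238, 200.2 and 249 normalized counts in injured and 250.2, 410.5 and 542 in control cells. Of 18 other transcription factors that promote fat cell formation, Egr2 (Krox20, which acts early in the cascade) rose by 1.80 ± 0.48 (SE, n = 3 pairs; limma adjusted p = 0.464) and Ppargc1a, a coactivator of PPAR gamma, fell by 2.03 ± 0.66. Egr2 had 66.7, 112 and 22.8 normalized counts in injured CD140a(-)/Sca1(+), CD140a(+)/Sca1(-) and CD140a(+)/Sca1(+) cells, against 11.1, 20.6 and 2.65 in control cells. Every injured library was thus above every control library, as for 4.18% of all genes tested. Egr2 was not called without the CD140a(-)/Sca1(+) pair, nor Ppargc1a without either of the other pairs.

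The list of genes taken as inhibitors of fat cell formation changed in both directions. Of 18 tested, 5 rose and 3 fell, with a median of -0.92, against 2.3% of all genes called higher, 3.46% called lower and a median of -0.33. Twist2, a transcription factor of mesenchymal cells, rose by 2.25 ± 0.65, and Sfrp1, a secreted protein that binds Wnt ligands, rose by 2.11 ± 0.48 (SE, n = 3 pairs each). Sfrp1 had 278, 298 and 167 normalized counts in injured and 47.6, 54.0 and 40.6 in control cells, with every injured library above every control library, as for 4.18% of all genes tested. Sfrp1 is known to favour fat cell formation by blocking Wnt signals, so it does not do what the name of the list says. Without it, a count made after its values were seen, 4 of 17 rose and 3 fell. Foxo1, a factor that represses Pparg in fat cell precursors, fell by 2.67 ± 0.78, and its value was 0 in injured CD140a(+)/Sca1(-) cells. The adjusted p of the 8 genes were all above 0.05 in the limma test. Without the CD140a(+)/Sca1(+) pair only 1 rose and 1 fell, and without the CD140a(-)/Sca1(+) pair 3 rose and 3 fell.

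Of 10 tested droplet coat and lipolysis genes, 0 rose and 3 fell, against 3.46% of all genes called lower, and the list median of -0.35 was close to the -0.33 of all genes. The 3 that fell were lipases that empty fat stores: Pnpla2 (ATGL, which cuts the first fatty acid from triglyceride, -2.38 ± 0.64), Lipe (hormone-sensitive lipase, the next step, -2.09 ± 0.48) and Mgll (monoglyceride lipase, the last step, -2.49 ± 0.70; SE, n = 3 pairs each). Their limma adjusted p-values lay between 0.423 and 0.489. Pnpla2 had 49.1, 19.3 and 20.3 normalized counts in injured CD140a(-)/Sca1(+), CD140a(+)/Sca1(-) and CD140a(+)/Sca1(+) cells, against 107, 175 and 347 in control cells. All 3 lipase genes were lower in each injured library than in its control, and the values of Lipe and Mgll were 0 in injured CD140a(+)/Sca1(-) cells. The endothelial sums above were lower in the same libraries, and their part in the lipase values was not tested. Of 12 triglyceride synthesis genes, 0 rose and 1 fell: Agpat5, an acyltransferase, with a difference of -3.34 ± 0.98 (SE, n = 3 pairs) and 159, 0 and 172 normalized counts in injured and 574, 472 and 673 in control cells.

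Of 20 tested genes of fatty acid uptake, activation and the partners of lipoprotein lipase, 0 rose and 2 fell, with a median of 0.16. Gpihbp1, the capillary protein that carries lipoprotein lipase to the vessel lumen, fell by 2.42 ± 0.66 and was listed at 0 in all 3 injured libraries, against 15.3, 4.44 and 78.5 normalized counts in control CD140a(-)/Sca1(+), CD140a(+)/Sca1(-) and CD140a(+)/Sca1(+) cells. Lipa, the lysosomal acid lipase, fell by 2.11 ± 0.69. Neither the count of 2 lower nor that of 0 higher held in every subset: 0 fell without the CD140a(+)/Sca1(+) pair, 1 fell without the CD140a(-)/Sca1(+) pair, and 2 rose without the CD140a(+)/Sca1(-) pair. Cd36, the fatty acid translocase, was named after its values were seen: it had 125, 312 and 89.3 normalized counts in injured and 150.2, 139 and 2164 in control cells, so that the control CD140a(+)/Sca1(+) library stood far above the others for Cd36, Lpl and Fabp4 alike, and Cd36 was not called (-1.19 ± 1.06, SE). Cd36 and Gpihbp1 are also genes of capillary endothelium, whose summed markers in these libraries are given above.

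Of 13 fatty acid synthesis genes, Fads1 (delta-5 desaturase) rose by 1.83 ± 0.55 and Elovl5 (an elongase of polyunsaturated fatty acids) by 1.67 ± 0.55, and 0 fell. Without the CD140a(+)/Sca1(+) pair 0 rose, and without the CD140a(-)/Sca1(+) pair 1 did. Of 18 fatty acid oxidation genes, 0 rose and 0 fell by the limma test, with a median of -0.25. Of 11 tested mature adipocyte genes, 0 rose and 0 fell, with a median of -0.48, and 1 rose without the CD140a(-)/Sca1(+) pair.

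**Figure D4:**
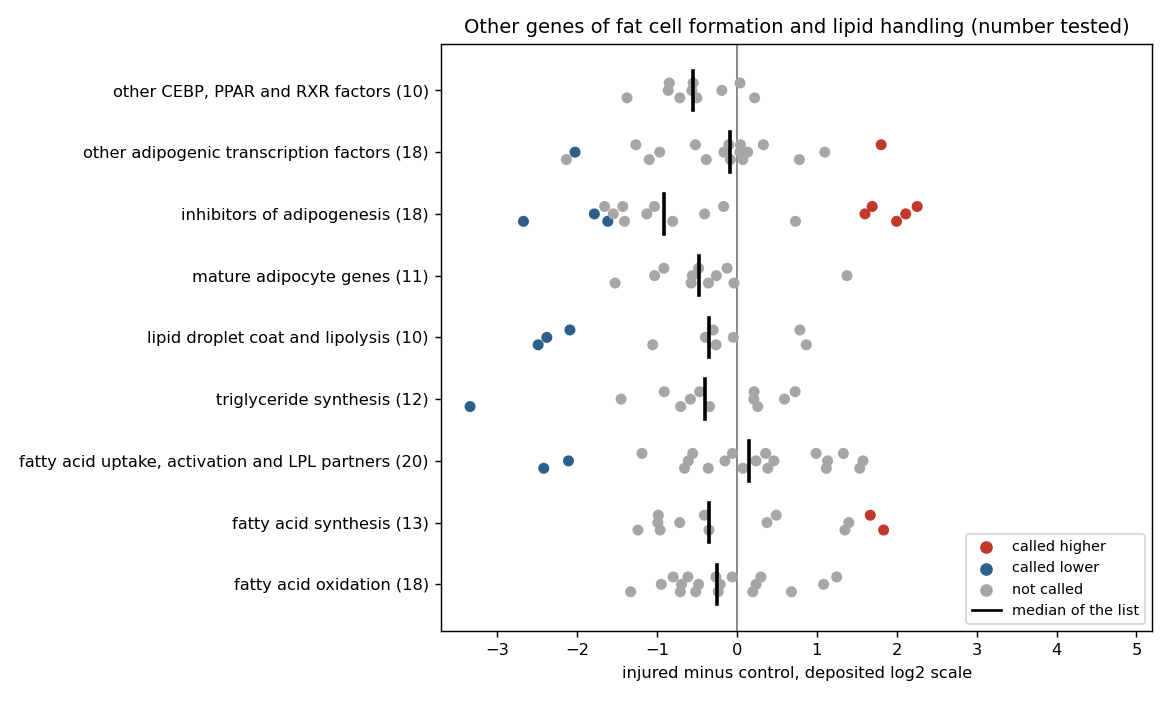
Injured minus control on the deposited log2 scale for the other genes of fat cell formation and lipid handling, by list, with the number tested in brackets. Each point is 1 gene over the 3 pairs of libraries, red called higher, blue called lower and grey not called, and the black bar is the median of the list. The list of inhibitors of adipogenesis, which includes Sfrp1, holds 5 genes called higher and 3 called lower, and the lipolysis list holds 3 called lower.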

How the data were processed

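Stromal cells sorted from injured and control muscle were profiled by 3′ end sequencing (QuantSeq, Ion Proton), with 1 library for each of 3 subpopulations in each state. According to the methods and the submitters' processing notes, reads were aligned with STAR to GRCm38 (mm10) and normalized with DESeq2. The table deposited by the authors holds log2 values per gene, variance-stabilized across the 6 libraries, with a lowest value of 2.57 for a gene without reads. These log2 values were put back exactly to normalized counts, and the value of 1 read in each library gave estimated reads. Only 56.1% to 64.0% of low values came out whole (within 0.02 of a read), and of the 10 genes 5 came out whole in all 6 libraries, so count models were not run. Intervals on counts are exact for estimated reads rounded to whole numbers, and cover counting error only. Pparg and Plin1 did not come out whole in all libraries, so their reads are approximate. In injured CD140a(+)/Sca1(+) cells, for instance, Pparg had 5.73 estimated reads.

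Injury was tested with limma 3.58.1 (R 4.3.3) on the deposited values with subpopulation as a block, as in the study's paired comparison, two-sided, over 15532 genes whose 80th percentile reached 8 on the linear deposited scale. A gene without reads stands at 5.93 on that linear scale, so the limit of 8 let genes near the floor pass. The shares given for all genes include them. A gene was called at an unadjusted p under 0.05 and at least 3-fold, and Benjamini-Hochberg adjusted p-values over all genes are given. The fit was run on simulated data with the same injury change in all 3 pairs and a single setting of the spread. Those data lacked the many zeros of the injured CD140a(+)/Sca1(-) library and opposite responses among pairs. The simulation therefore does not show how the fit behaves under these. Tables and figures were made with Python 3.11.15, pandas 2.3.3, scipy 1.17.1 and matplotlib 3.10.9. Of 22483 IDs, 22453 matched a symbol of GENCODE M21.

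All 10 genes are named. From 16 other lists, the rule for naming took up to 3 called genes with the largest change in the same direction in all 3 subpopulations, otherwise the most abundant, and the sort genes. Not every gene that met this rule is named in the text, Rgs5 and Col3a1 among them. Cd36, Lep, Rgcc and Aqp1 fall outside this rule and were chosen after their values were seen. The 10 genes and the lists were chosen with earlier results of these data known, and no list was tested as a set. The list of other binding proteins is not reported here.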

Additional observations from a re-analysis of the deposited data

Results flagged for a closer look

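Cebpd and Lpl each moved more than 1.5-fold in opposite directions among the subpopulations. For Cebpd the injured minus control difference on the deposited log2 scale was -1.39 in CD140a(-)/Sca1(+) cells, -1.02 in CD140a(+)/Sca1(-) cells and 0.96 in CD140a(+)/Sca1(+) cells. For Lpl it was 1.01 in CD140a(-)/Sca1(+) cells, -1.16 in CD140a(+)/Sca1(-) cells and -1.89 in CD140a(+)/Sca1(+) cells. Each value is 1 library against 1, so the difference between subpopulations was not tested.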

How the results depend on the processing

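Results were recomputed under up to 12 alternatives: no filter, a filter on normalized counts, log2 of the normalized count plus 1 or plus 0.5, 75th percentile scaling, quantile normalization, a variance trend, an unmoderated test, no replicate block, and each pair left out. The filter on normalized counts removed Pparg and Adipoq and gave no value for them. Subpopulation comparisons had 10, without those lacking the block or their own pair. Fabp4 was called lower under all 12. Fabp5 reversed to -0.024 without the CD140a(+)/Sca1(-) pair, within a range of -0.024 to 0.80 over the left-out pairs. No other gene of the 10 reversed in its difference over the subpopulations. Within single subpopulations Plin1, Cebpb and Plin2 did turn under other scalings, as given in the Results.

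Over all genes, 357 were called higher and 537 lower. The counts were 181 and 245 with no filter, 114 and 180 with the unmoderated test, 301 and 866 with log2 plus 1, and 243 and 907 with log2 plus 0.5. With a pair left out they ran from 183 to 456 higher and from 412 to 563 lower. Genes called higher were 39.9% of all calls, against 25.8% with log2 plus 1, 21.1% with log2 plus 0.5, 52.5% without the CD140a(+)/Sca1(-) pair and 24.5% without the CD140a(+)/Sca1(+) pair. The median of all genes was -0.33, against -0.14 after quantile normalization and -0.05 without the CD140a(+)/Sca1(-) pair.

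For CD140a(-)/Sca1(+) cells against the others, 1 of the 10 genes was called higher with log2 plus 1 and with log2 plus 0.5 (0 otherwise), and 0 were called lower with no filter, log2 plus 1, log2 plus 0.5 or the unmoderated test, and from 0 to 1 with a pair left out. For CD140a(+)/Sca1(+) cells, 0 were called higher with no filter or the unmoderated test, and from 0 to 1 with a pair left out. The cause of these moves was not tested.

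Without the replicate block 337 genes were called higher and 485 lower, and Fabp4 was still called (limma adjusted p = 0.234). Deviations of the injured and control library of one subpopulation correlated at 0.066, -0.0049 and -0.012 over 15532 genes, so the data gave no hint of pairing. The edgeR and DESeq2 alternatives were not run, because the values are not counts. Depth limits Pparg, Adipoq and Plin1, which had at most 71 reads in any library. It also limits Cebpa and Cebpb in some libraries. In injured and control CD140a(+)/Sca1(+) cells, Cebpa had 24 and 15 reads and Cebpb 26 and 22.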
